A study of Aspergillus nidulans with 6 samples.

Results

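The genes described here are 4 transcription factor genes of *Aspergillus nidulans* development, *vadZ* (AN8774), *fkhB* (AN2854), *silG* (AN0709) and *flbD* (AN0279). The AtfA ChIP-seq peaks described are those that overlap 5 genomic intervals at these genes by at least 1 bp, namely 20 of the 2723 peaks in 6 deposited lists, or 5 of the 707 regions that remain when overlapping peaks of the lists are merged. The intervals were chosen by the measured peaks themselves, so presence, width and extent of the peaks at them are given as a description, without a test. AtfA binding was mapped in conidia harvested from surface cultures on NMM agar in 3 conditions with 2 replicates each. These were conidia of untreated cultures aged 2 d (2 d Untr) and 3 d (3 d Untr), and conidia of cultures aged 3 d with 0.04 mM menadione sodium bisulfite, an oxidative stress agent (3 d MSB). All 6 libraries came from a single strain, *atfA*::3XFLAG, in a *veA*+ background with *pyrG89* and *pyroA4*. Its own *atfA* gene was deleted (Δ*atfA*::*AfupyrG*+), and the tagged copy was brought in as *atfA*-3XFLAG::*pyroA*+. This copy was driven by the native *atfA* promoter and ended in the *trpC* terminator, and the immunoprecipitation was directed at FLAG. Input DNA and an untagged strain were not analysed here. The study speaks of biological replicates, but neither its methods nor the labels say whether they were separate cultures, and the p-values given below measure the spread between these libraries.

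AtfA is a bZIP transcription factor of the ATF/CREB type that acts downstream of the HogA (SakA) stress kinase and is known for its part in the stress tolerance of conidia. Asexual development of *A. nidulans* runs through upstream fluffy genes, among them *flbD*, to the central regulators *brlA*, *abaA* and *wetA*, and the velvet proteins VosA and VelB govern the maturation of the spore. *vadZ* encodes a zinc cluster transcription factor activated by VelB and VosA, *fkhB* a forkhead transcription factor, *silG* a putative zinc finger protein linked to sexual development in light, and *flbD* a Myb-type activator of conidiation.

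The 5 regions are given in the coordinates of the peak lists, which follow the *A. nidulans* genome of JGI MycoCosm. The *vadZ* region lay at III:2851541-2851920 (380 bp) and the *fkhB* region at VI:2595141-2595720 (580 bp). *silG* had a main region at VIII:2716961-2717760 (800 bp) and a minor region at VIII:2716221-2716660 (440 bp), with 300 bp between them. The *flbD* region lay at VIII:4060261-4060500 (240 bp). No annotation in these coordinates was used. The link from region to gene rests on the positions of peak centres relative to the transcription start site that the study lists per gene, and all 5 listed for *vadZ*, all 3 for *fkhB* and 9 of 10 for *silG* fell on peak centres of these regions at one start site. For *flbD* only 1 position is listed. Searched over the whole genome, all listed positions together fitted 2 places for *vadZ*, 5 for *fkhB*, 1778 for *flbD* and 0 for *silG*, of whose positions 1 was not matched, so the links also rest on the choice of the interval, and that of *flbD* rests on it alone. In the gene order of RefSeq, which is of another assembly, *vadZ* lies between AN8775 and AN11122, *fkhB* between *pacC* (AN2855), the transcription factor of the pH response, and AN2853, *silG* between AN0710 and AN0708, and *flbD* between AN0280 and AN0278. The start site that the listed positions give for *silG* fell inside its main region. All 6 summits of the main region lay downstream of it and all 4 summits of the minor region upstream. At *vadZ* and *fkhB* all summits, 5 and 4, lay upstream of the start site given in the same way. For *flbD* the 1 summit lay upstream, but 2 start sites fitted its listed position equally well.

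The lists held 434 to 473 peaks. The score of a peak is the authors' own value and is not comparable between lists, so each peak is given by its score percentile, the rank of its score from the lowest of its list, ties averaged, as a percent of the peaks in the list. Within each list 100% of the scores were whole multiples of one step, to within the rounding of 1 score unit. The step was 304 in 2 d Untr replicate 1, 161 in 2 d Untr replicate 2, 171 and 128 in 3 d Untr replicates 1 and 2, and 129 and 86.7 in 3 d MSB replicates 1 and 2. If a step is 1 read at the summit, which the files do not state, the step falls as depth rises, and the relative depth was 1.88, 1.77, 2.38, 2.36 and 3.51 times that of 2 d Untr replicate 1 in the other 5 libraries in that order. Heights in steps are given with a 95% exact Poisson interval on this reading, which covers counting error only.

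Each member region held at most 1 peak per library, and the number of libraries with a peak ran from 6 at the main *silG* region through 5 at *vadZ* and 4 at *fkhB* and at the minor *silG* region to 1 at *flbD*. Across all 707 regions 35.4% had a peak in exactly 6 libraries, 9.62% in exactly 5, 9.76% in exactly 4 and 24.0% in exactly 1. 2 d Untr replicate 1, the library with the largest step, held 5 member peaks among its 473, and 2 d Untr replicate 2 held 2 among 434. 3 d Untr replicates 1 and 2 held 3 each, among 473 and 451. 3 d MSB replicate 1 held 3 among 453, and 3 d MSB replicate 2 held 4 among 439. Over the 15 combinations of region and condition, both replicates had a peak in 7, a single replicate in 6 and neither in 2. The shares of all regions with a peak in each library, in a single replicate or in neither were not counted, so these counts are descriptions only. In 2 d Untr both replicates had a peak at the 2 *silG* regions, against 43.8% of all regions. In 3 d Untr both had one at *vadZ* and the main *silG* region, against 49.9% of all regions, and in 3 d MSB at *vadZ*, *fkhB* and the main *silG* region, against 53.9% of all regions. A library without a peak has no value at the region, and signal under the limit of peak calling was not analysed here.

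**Figure D1:**
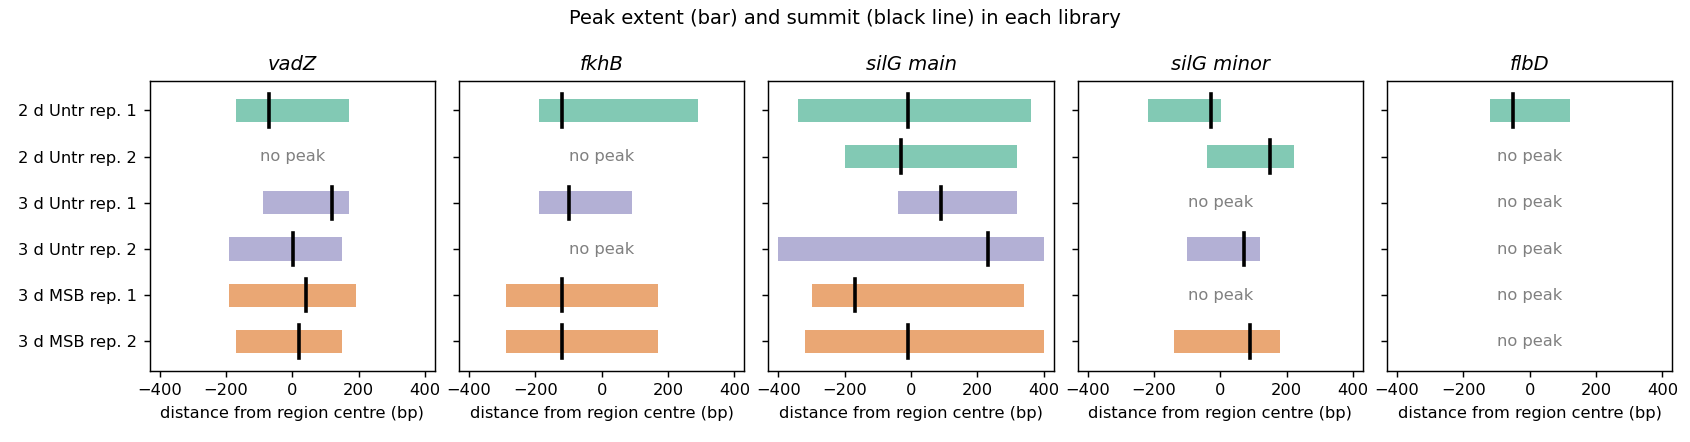
Extent of the peak (bar) and position of its summit (black line) at the 5 member regions in each of the 6 libraries, as distance from the centre of the region in bp. Summits of *fkhB* stood within 20 bp of each other, while those of the main *silG* region were spread over 400 bp.

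At *vadZ* a peak was listed in 5 of 6 libraries and was missing from 2 d Untr replicate 2. The score percentile was 52.5 in 2 d Untr replicate 1. It was 24.0 and 55.3 in 3 d Untr replicates 1 and 2. It was 41.9 and 34.3 in 3 d MSB replicates 1 and 2. Both MSB values fell between the 2 values of untreated conidia of the same age, so the groups overlapped. In height the peak had 79 steps in 2 d Untr replicate 1 (95% interval 62.5 to 98.5), where the median peak of the list had 76. It had 46 steps (33.7 to 61.4) and 119 steps (98.6 to 142) in 3 d Untr replicates 1 and 2, against list medians of 59 and 112. It had 217 (189 to 248) and 306 (273 to 342) in 3 d MSB replicates 1 and 2, against medians of 235 and 335. The *vadZ* peak stood at 0.78 to 1.06 times the median score of the 5 lists that held it, lowest in 3 d Untr replicate 1, where it ranked 354 of 473. Read back into percentiles, the 5 counting intervals all held the range from 32.6 to 52.6, although the value of 3 d Untr replicate 2, 55.3, lay above the interval of replicate 1 (1.48 to 54.1).

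The *vadZ* peaks were 340 bp wide in 2 d Untr replicate 1, 260 and 340 bp in 3 d Untr, and 380 and 320 bp in 3 d MSB. They shared 240 bp in all 5 libraries, and pairs of libraries shared on average 82.2% of the bases covered by either peak, with a higher share than at 61 of the 67 other regions held by 5 libraries. The summit moved more than the edges did. It stood at 2851661 in 2 d Untr replicate 1. It stood at 2851851 and 2851731 in 3 d Untr replicates 1 and 2, and at 2851771 and 2851751 in 3 d MSB replicates 1 and 2. The range of 190 bp compares with a median of 80 bp (quartiles 40 and 120) in the 67 other regions, of which 61 had a smaller range. The lowest coordinate came from 2 d Untr replicate 1 and the highest from 3 d Untr replicate 1, and the other 3 summits lay within 40 bp of each other. No other peak was near: the closest region on either side lay 58540 and 33620 bp away, against a median gap of 22300 bp between neighbouring regions. Of the 68 regions held by 5 libraries, 33 lacked 2 d Untr replicate 2 as *vadZ* did, which was the most frequent missing library.

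At *fkhB* both libraries of 3 d MSB had a peak, and so did replicate 1 of each untreated condition, while replicate 2 of 2 d Untr and of 3 d Untr had none. The score percentile was 44.8 in 2 d Untr replicate 1. It was 31.5 in 3 d Untr replicate 1. It was 49.2 and 52.5 in 3 d MSB replicates 1 and 2. Both MSB peaks ranked above both untreated ones, but how many other regions had this order was not counted. Each untreated condition had only 1 value, so no test was made. The heights of 73 (57.2 to 91.8), 49 (36.3 to 64.8), 233 (204 to 265) and 342 (307 to 380) steps in the same order gave counting intervals that all held the percentiles from 35.1 to 58.8. Regions with a peak in both MSB libraries and in a single library of each untreated condition made up 3.82% of all regions, 27 in number, and 6 regions other than *fkhB* had a peak in exactly its 4 libraries. Their median mean percentile was 21.1, against 44.5 at *fkhB*.

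The summit of *fkhB* was the most closely placed among the members with several peaks. It stood at 2595311 in 3 libraries and at 2595331 in 3 d Untr replicate 1, a range of 20 bp, whereas the median over the 68 other regions held by 4 libraries was 55 bp (quartiles 40 and 122) and 13 had a range as small or smaller. The edges did not share this precision. The peak was 480 bp wide in 2 d Untr replicate 1, 280 bp in 3 d Untr replicate 1 and 460 bp in each MSB library, where start and end were identical. The peak of 2 d Untr replicate 1 reached further to higher coordinates and those of 3 d MSB further to lower ones, and centres were 110 bp apart at most. In every library the summit lay in the lower-coordinate part of the peak, at 14.6% to 37.0% of its width. The mean width of 420 bp exceeded that of 64 of the 68 other regions held by 4 libraries, whose median was 272 bp. The next region, held by 5 libraries, was 5280 bp away.

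The main *silG* region was the only member with a peak in all 6 libraries. Its score percentile was 83.2 and 28.8 in 2 d Untr replicates 1 and 2. It was 46.2 and 55.3 in 3 d Untr replicates 1 and 2. It was 27.9 and 53.4 in 3 d MSB replicates 1 and 2. 2 d Untr replicate 1 stood far above the other 5, where the peak ranked 80 of 473, and the 3 conditions overlapped. The heights were 117 (96.8 to 140) and 65 (50.2 to 82.8) steps in 2 d Untr, 57 (43.2 to 73.9) and 119 (98.6 to 142) in 3 d Untr, and 194 (168 to 223) and 344 (309 to 382) in 3 d MSB. In percentiles, the counting interval was 69.1 to 90.9 in 2 d Untr replicate 1 and 8.29 to 53.5 in replicate 2, so on this reading these replicates differed by more than counting error. It also lay above those of 3 d Untr replicate 1 (18.4 to 68.5) and 3 d MSB replicates 1 (15.5 to 45.3) and 2 (35.5 to 67.0). It overlapped that of 3 d Untr replicate 2 (31.0 to 70.1). These intervals hold the ranks of all other peaks fixed. The range of 55.3 percentile points over the libraries was larger than at 231 of the 249 other regions held by 6 libraries (median 27.9). The mean percentile of 49.1 was low for such regions, whose median was 68.7 (quartiles 52.2 and 82.9), and 47 of the 249 had a lower one.

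**Figure D2:**
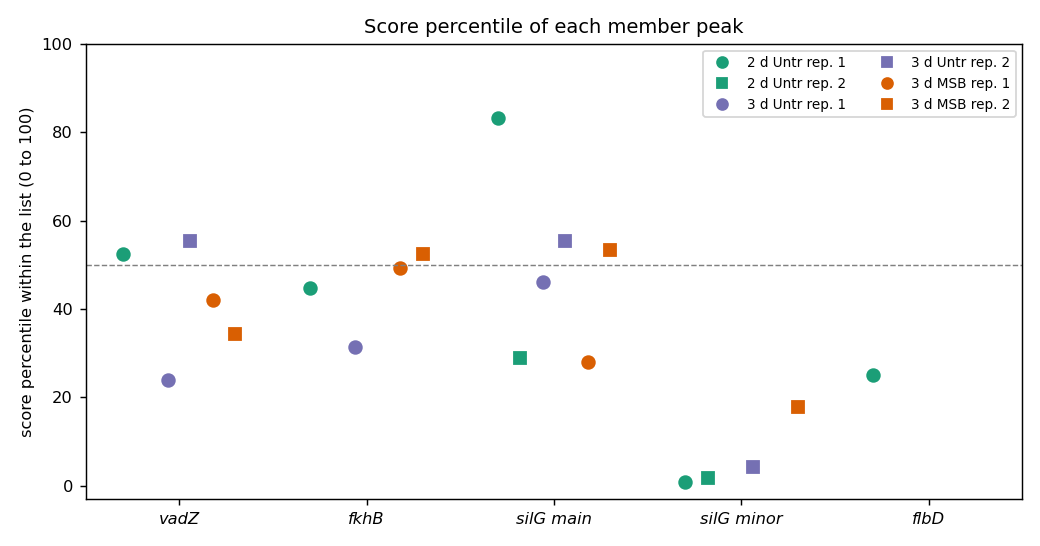
Score percentile within the list (y axis, 0 to 100) of each member peak, by region, with colours for conditions and circles and squares for replicates 1 and 2; the dashed line marks the middle of a list. The highest value, 83.2, belonged to the main *silG* region in 2 d Untr replicate 1, and all 4 peaks of the minor *silG* region were at 17.9 or lower.

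The peaks of the main *silG* region were broad. They were 700 and 520 bp wide in 2 d Untr, 360 and 800 bp in 3 d Untr, and 640 and 720 bp in 3 d MSB, and their mean of 623 bp exceeded that of 208 of the 249 other regions held by 6 libraries (median 447 bp). All 6 shared 360 bp, which is the whole peak of 3 d Untr replicate 1. The summit stood at 2717351 and 2717331 in 2 d Untr. It stood at 2717451 and 2717591 in 3 d Untr. It stood at 2717191 and 2717351 in 3 d MSB. Both untreated 3 d summits thus lay at higher coordinates than the other 4, an order whose share among the other regions was not counted. The range of 400 bp was larger than at 237 of the 249 other regions (median 70 bp), while the centres of the same peaks were spread over 140 bp (median 80 bp).

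The minor *silG* region had peaks in both 2 d Untr libraries, in 3 d Untr replicate 2 and in 3 d MSB replicate 2. The score percentile was 0.74 and 1.84 in 2 d Untr replicates 1 and 2. It was 4.21 in 3 d Untr replicate 2 and 17.9 in 3 d MSB replicate 2. The first 3 were among the lowest peaks of their lists, with 37 steps (26.1 to 51.0) where the lowest peak of the list had 35, 45 (32.8 to 60.2) against 41, and 70 (54.6 to 88.4) against 61. The peak of 3 d MSB replicate 2 ranked 361 of 439 and had 261 steps (230 to 295) against 203. In those 3 libraries the lower bound was under the lowest peak of the list. The mean percentile of 6.17 was lower than at all 68 other regions held by 4 libraries (median 34.9). The peaks were 220, 260, 220 and 320 bp wide in the same order. The 2 peaks of 2 d Untr shared only 40 bp, with summits 180 bp apart, and the mean shared part of 42.2% over all pairs was under that of all but 2 of the 68 other regions (median 72.9%). In the 4 libraries with both *silG* peaks, the main peak was 3.16, 1.44, 1.70 and 1.32 times as high as the minor one in the order given, and their summits were 740 to 1080 bp apart. The lists differ in range, from 35 to 380 steps in 2 d Untr replicate 1 and from 203 to 559 in 3 d MSB replicate 2. These ratios are therefore not compared between libraries. A gap of 300 bp or less separated only 36 of 699 neighbouring pairs of regions.

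**Figure D3:**
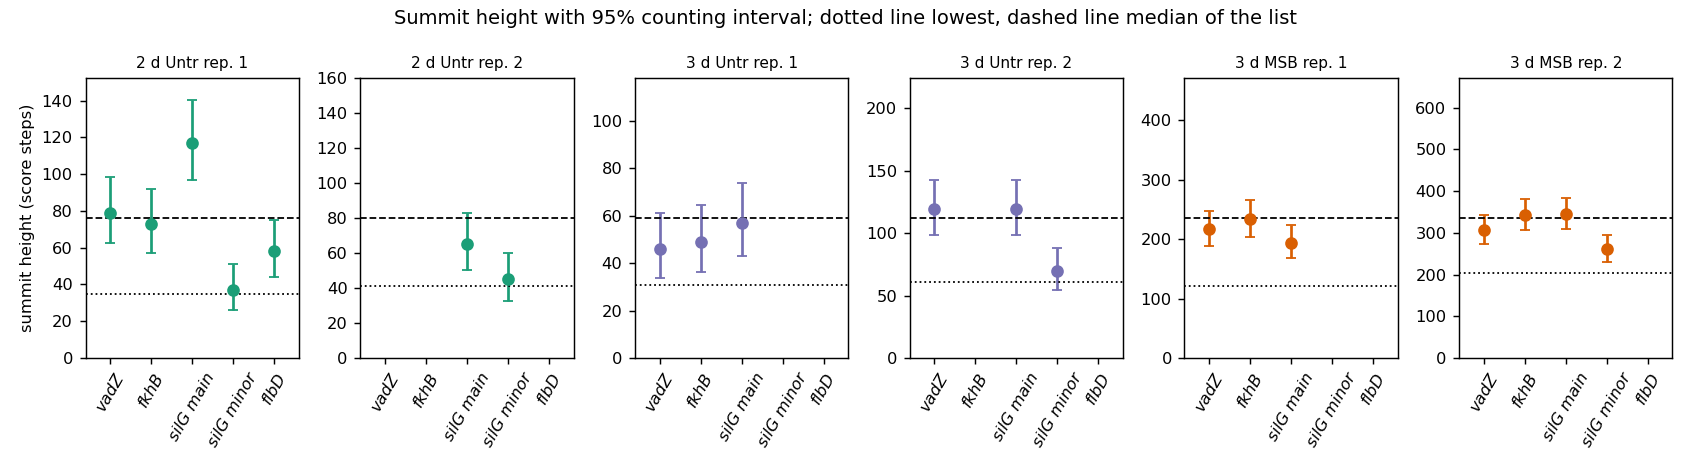
Height of each member peak at its summit in score steps, with 95% exact Poisson intervals, in the 6 libraries; each panel has its own scale, the dotted line is the lowest and the dashed line the median peak of the list. The intervals of the minor *silG* region reached under the lowest peak of the list in 3 of its 4 libraries.

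At *flbD* a single library, 2 d Untr replicate 1, had a peak. It was 240 bp wide, had its summit at 4060331 and a score percentile of 25.1, with 58 steps (44.0 to 75.0) against a lowest peak of 35 and a median of 76 in that list. Its interval read back into percentiles was 5.50 to 47.1. The other replicate of 2 d Untr and all 4 libraries of 3 d conidia had no peak there, and their nearest peaks lay 4440 bp or more from the region. 2 d Untr replicate 1 alone held 42 of the 170 regions with a peak in 1 library, against 34 for 2 d Untr replicate 2, 51 and 17 for 3 d Untr replicates 1 and 2, and 12 and 14 for 3 d MSB replicates 1 and 2. Among these 42 the *flbD* peak was in the upper part, since 27 had a lower score and 12 a higher one, and their median percentile was 17.1. With no peak in the second replicate, a difference between 2 d and 3 d conidia at *flbD* could not be tested.

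Conditions were compared where all 4 libraries of a pair of conditions had a peak, which left *vadZ* and the main *silG* region for 3 d MSB against 3 d Untr and the main *silG* region alone for 3 d Untr against 2 d Untr. With 2 libraries against 2, the smallest p that the exact two-sided permutation test allows is 0.333, so no difference could pass 0.05, and over the 6 tests made every Benjamini-Hochberg adjusted p was 1. The mean score percentile at *vadZ* was 38.1 ± 5.42 in 3 d MSB and 39.7 ± 22.2 in 3 d Untr (SD, n = 2; exact permutation p = 1). The difference of -1.55 was far smaller than the spread of the untreated libraries, and it became 14.1 without 3 d Untr replicate 2 and 2.28 without 3 d MSB replicate 2. At the main *silG* region it was 40.7 ± 18.0 in 3 d MSB and 50.8 ± 6.45 in 3 d Untr (SD, n = 2; exact permutation p = 0.667), and the difference of -10.1 became 2.66 without 3 d MSB replicate 1. 2 d Untr gave 56.0 ± 38.5 there (SD, n = 2), so that the difference of 3 d Untr minus 2 d Untr was -5.24 (exact permutation p = 1), and it became 22.0 without 2 d Untr replicate 1. Each of these differences was smaller than the larger of its 2 group SDs, and the one between 3 d MSB and 3 d Untr at *silG* was larger than the SD of 3 d Untr.

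In position, the mean *vadZ* summit of 3 d MSB was -30 bp from that of 3 d Untr, with SDs of 14.1 and 84.9 bp (n = 2, exact permutation p = 1), and the difference turned to 30 bp without 3 d Untr replicate 1. At the main *silG* region the mean summit of 3 d MSB was -250 bp from that of 3 d Untr, with SDs of 113 and 99.0 bp, and that of 3 d Untr was 180 bp from that of 2 d Untr, with SDs of 99.0 and 14.1 bp. The groups did not overlap in either comparison, and both gave the smallest exact permutation p, 0.333 (n = 2), before adjustment. With 2 libraries against 2, that p is reached by any full separation of the groups. The share of other regions whose summits separated in this way was not counted, so the separation is a description only. The centres of the peaks moved less, by -40 bp between 3 d MSB and 3 d Untr and by 35 bp between 3 d Untr and 2 d Untr. Without 3 d Untr replicate 2 the summit difference between 3 d Untr and 2 d Untr was 110 bp, and over single libraries left out it was 110 to 250 bp, against -330 to -170 bp for 3 d MSB minus 3 d Untr.

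**Figure D4:**
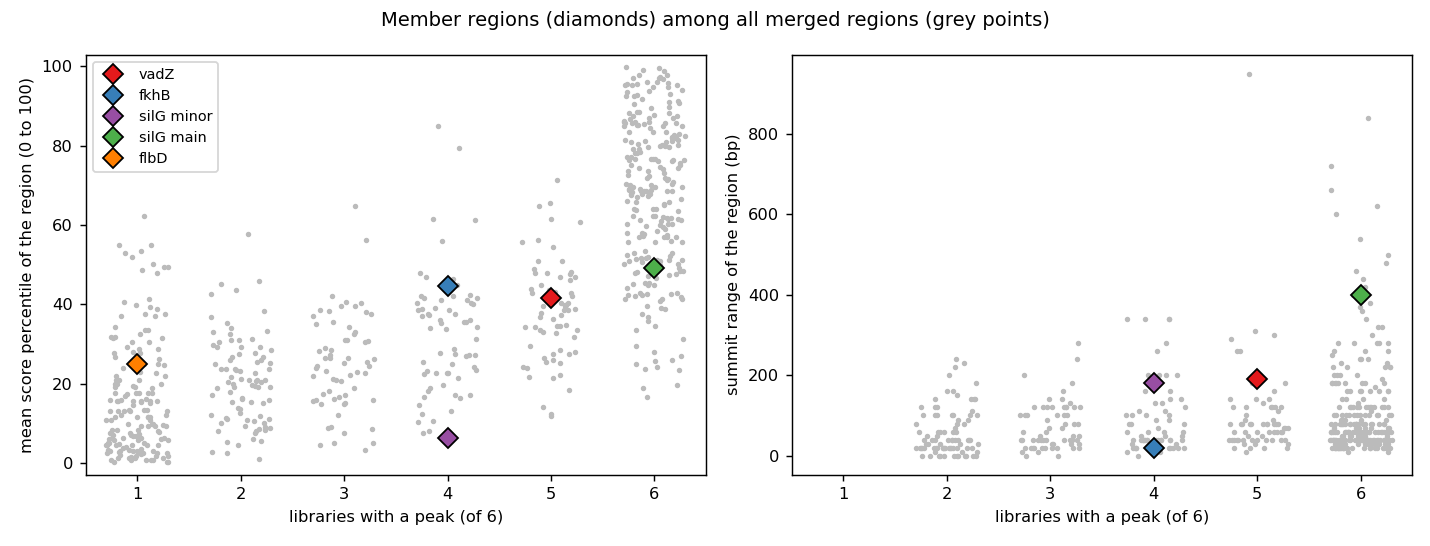
Mean score percentile (left, 0 to 100) and range of summit positions in bp (right) of all merged regions, by the number of libraries with a peak; grey points are other regions, spread sideways for legibility, and diamonds the members. The minor *silG* region had the lowest mean percentile among regions held by 4 libraries, 6.17, and the main one a summit range of 400 bp.

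Among the 249 other regions held by 6 libraries, those whose percentiles were most like the main *silG* region were VIII:807181-807460, with a mean absolute difference of 9.02 percentile points over the 6 libraries, VIII:792481-792980, tied to AN10181 (9.72), and II:515921-516320, tied to AN8018 (10.0). The median difference was 27.9. Their summit ranges were 80, 200 and 40 bp, below the 400 bp of *silG*.

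Of 13 further genes that the study discusses with conidial development, 10 could be tied to a single place by at least 3 listed positions, and 9 of these had a region held by 6 libraries. Over all regions the share held by 6 libraries was 35.4%, but a rule of at least 3 listed positions favours regions with many peaks. The share among all 254 genes tied in this way was not counted, so the 9 of 10 is a description only. The mean score percentile was 99.6 at *conF* and 99.2 at *conJ*, genes induced during conidiation. It was 91.0 at *velB*, a velvet regulator, 86.0 and 66.0 at AN5086 and AN10628 of the *spoC1* cluster, 82.9 at AN4636, 81.5 at AN0742, 69.6 at *cetA* and 43.0 at AN4873. The main *silG* region at 49.1 was thus below 8 of these 9 genes, which were selected by that rule. Among all 249 other regions held by 6 libraries only 18.9% had a lower mean percentile than *silG*, so this order is not particular to these genes. The velvet gene *vosA* had a region held by 2 libraries (mean percentile 7.99) and another held by 1 (17.6), and *veA*, *nsdD* and AN3433 could not be tied to a single place. Of 10 central or early regulators of conidiation, *brlA*, *abaA*, *wetA*, *stuA*, *medA*, *fluG*, *flbA*, *flbB*, *flbC* and *flbE*, 0 had a listed position, so no region was tied to them here. The curated list of the study holds only 502 genes of the whole genome. A count of 0 among 10 genes is therefore not read as a lack of AtfA binding at them.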

How the data were processed

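Per the labels and the study's methods, the authors used Bowtie2 to align single reads, SAMtools and Picard to drop PCR duplicates, deepTools for RPKM normalization and MACS2, with default parameters, to find peaks in each library. The deposited score of each peak is a whole number made by the peak caller from that library's normalized track. The deposited lists give start, end and summit in bp, with edges on a grid of 20 bp, and the fields for enrichment and for p and q values are 0 throughout and were left out. Read totals are not in the lists, so depth was read only as the step of the scores. Intervals cover counting error only.

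Peaks overlapping by at least 1 bp were merged over the 6 lists with Python 3.11.15 and numpy 2.4.6. Conditions were compared with exact permutation tests over libraries. The code was tested on simulated data. Genes of the text were the 4 members, a list of other developmental genes tied by at least 3 listed positions, and the 3 regions most like each member held by 6 libraries. Members and lists were chosen with earlier results of these data known. A planned search of promoters for the CRE core is not analysed here, and no genome sequence was used. As alternatives, members were required to have at least 50% of the peak in the interval, and the others were the summit inside the interval, the 300 best peaks of each list, peak width as rank, the mean of all peaks, peak centres, merging within 100 bp, a replicate block, leaving out each library and, chosen after seeing the data, the log2 score over the list median.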

Additional observations from a re-analysis of the deposited data

How the results depend on the processing

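The number of libraries with a peak fell to 0 at the minor *silG* region and at *flbD* when only the 300 best peaks of each list were kept, and leaving out single libraries gave 0 to 1 at *flbD*. The other counts of libraries stayed within 1.5 times under every alternative run, as did the share of regions held by 6 libraries. For 3 d MSB minus 3 d Untr, the difference in score percentile turned to 4.06 at *vadZ* and 11.5 at the main *silG* region with peak width as rank, and to 0.013 at *vadZ* on the log2 scale over the list median. Leaving out single libraries gave -17.2 to 14.1 at *vadZ* and -22.8 to 2.66 at the main *silG* region, and -90 to 30 bp for the *vadZ* summit. For 3 d Untr minus 2 d Untr it gave -32.4 to 21.96 at the main *silG* region. The cause was not tested. With the replicate block the differences were as in the report (-1.55 at *vadZ* and -10.1 at the main *silG* region, exact p = 1 and 0.5, n = 2 pairs). Whether the replicate numbers pair the libraries was not settled. Deviations of same-numbered libraries over 250 regions correlated at -0.29 between 2 d Untr and 3 d Untr and at -0.40 between 2 d Untr and 3 d MSB. Between 3 d Untr and 3 d MSB the correlation was 0.24. The differences were not tested with the 300 best peaks where a library lost its peak, and the promoter search was not run.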
